A study of Mus musculus with 222 samples.

Results

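The Hox genes are homeobox transcription factor genes that lie in 4 clusters, HoxA, HoxB, HoxC and HoxD, on mouse chromosomes 6, 11, 15 and 2. The genes described here were chosen by name: they are 38 of the 39 Hox rows among the 24391 gene symbols of each deposited table, with 10 genes in HoxA, 10 in HoxB, 9 in HoxC and 9 in HoxD. Within a cluster the genes are numbered by paralogue group, and for description they were split into an anterior section of groups 1 to 3 (7 genes), a central section of groups 4 to 8 (15 genes) and a posterior section of groups 9 to 13 (16 genes).

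Hox proteins give cells of the embryo their position along the head-to-tail axis. The order of the genes along a cluster follows both the time and the axial level at which they become active, a property called colinearity. Outside its own domain a Hox gene is kept silent by Polycomb proteins: Polycomb repressive complex 2 (PRC2) methylates histone H3 on lysine 27, and EED is the core subunit that binds this mark and is needed for the activity of the complex. Primordial germ cells (PGCs), the embryonic precursors of eggs and sperm, silence somatic genes including Hox genes when they are specified.

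The series asks what EED does in PGCs of the embryonic gonad, by comparing RNA of Control and ECKO embryos. Dams were OG; Eedfl/fl and sires BC; Eedf/l+, so that every embryo of either group received a floxed allele from its mother. OG is an Oct4-GFP reporter, by which the PGCs were sorted, and BC is Blimp1-Cre, whose promoter drives the deletion in PGCs. Controls are labelled wild type and ECKO embryos Eed-/-, all on a C57BL/6;129S1/SvlmJ strain background, and whether Controls carry the Cre is not given in the labels. The groups were E11.5 XY (4 Control and 4 ECKO libraries), E11.5 XX (3 and 4) and E13.5 XY (4 and 3), each library a sorted population, and single cells of E12.5 from 2 embryos for each sex and genotype. Whether a bulk library holds 1 embryo or several is not stated, so p-values measure the spread between libraries, which may in part be technical.

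Bulk libraries held between 415291 counts (E11.5 XX Control replicate 1) and 14974853 counts. At E12.5, 127 of 192 cells were kept, 13 to 22 per embryo, and their sums held 14162553 to 28753681 counts per embryo. Levels are given as CPM, the count of a gene scaled to a common library size. Eed, the targeted gene, separated Control from ECKO samples at each stage and in both sexes, with no overlap: at E13.5 it stood at 80.4, 93.5, 57.5 and 120 CPM in Controls and at 2.98, 12.7 and 10.4 CPM in ECKO (log2 fold change −3.33, SE 0.559, adjusted p = 0.0107, edgeR). The germ cell genes Ddx4, Dazl and Pou5f1 had counts in every library, at 21.5 to 415, 6.63 to 1091 and 9.90 to 409 CPM. The sum of 13 germ cell markers was nevertheless lower in ECKO at the later stages. At E13.5 it was 3607, 2285 and 2085 CPM against 4237 to 5012 CPM in Controls. At E12.5 it was 2881 and 2481 against 6394 and 6558 CPM in XX, and 7387 and 5130 against 7525 and 8611 CPM in XY. The E11.5 ECKO libraries numbered 4 stood apart in both sexes, with 794 (XY) and 2380 (XX) summed CPM of 18 interstitial cell markers against 67.1 to 260 and 62.3 to 324 in the other libraries of their sex, and with the lowest germ cell marker sums of E11.5 (2507 and 1917 CPM against 2827 to 3988). Beside E11.5 results, values without them are therefore given.

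Hoxd9 and Hoxd8, a pair of neighbours in HoxD and the HoxD genes that passed the test at E13.5, are shown with the RefSeq sequence around their annotated starts (250 bases before to 50 after, assembly GRCm38.p6, plus strand). Every CG dinucleotide is in capitals, since Polycomb complexes are known to settle on CG-dense DNA. The Hoxd9 stretch lies at chr2:74697513-74697812 and the Hoxd8 stretch at chr2:74704365-74704664.
Hoxd9: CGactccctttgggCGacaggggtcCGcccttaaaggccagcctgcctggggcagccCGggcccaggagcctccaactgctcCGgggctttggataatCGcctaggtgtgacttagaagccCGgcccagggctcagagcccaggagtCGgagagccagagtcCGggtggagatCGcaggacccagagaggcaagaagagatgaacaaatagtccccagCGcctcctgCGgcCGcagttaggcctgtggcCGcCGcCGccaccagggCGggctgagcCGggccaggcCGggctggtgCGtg
Hoxd8: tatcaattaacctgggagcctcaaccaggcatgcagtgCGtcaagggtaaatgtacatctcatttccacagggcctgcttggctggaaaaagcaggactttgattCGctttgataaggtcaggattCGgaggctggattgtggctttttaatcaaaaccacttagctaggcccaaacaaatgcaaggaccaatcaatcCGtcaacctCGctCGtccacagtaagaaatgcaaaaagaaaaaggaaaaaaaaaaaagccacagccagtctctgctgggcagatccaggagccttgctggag
The 300 bases of Hoxd9 hold 20 CG and those of Hoxd8 hold 6. CG reads the same on both strands. Over all 32851 starts of 27025 genes in the same RefSeq table the median is 7 CG, and 43.5% hold 10 or more. Sequences were matched for 22 of the 38 Hox genes, which is too few for a statement on the clusters, and such a check is void. Hoxc9, Hoxc12, Hoxc13 and Hoxb13 are named only. The deposited counts were made on build mm9, so no position is taken from them.

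At E13.5, Hox RNA was near the detection limit in most XY Control libraries and higher in each ECKO library. The summed level of the 38 genes was 5.36, 5.67, 1.22 and 18.0 CPM in Control replicates 1 to 4, and 210, 71.6 and 129 CPM in ECKO replicates 1 to 3. The groups did not overlap, and replicate 4 was the highest Control. A count was found for 7, 16, 3 and 12 of the genes in Controls and for 19, 28 and 29 in ECKO. In sorted populations, fewer cells with Hox RNA and less Hox RNA per cell cannot be told apart.

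**Figure D1:**
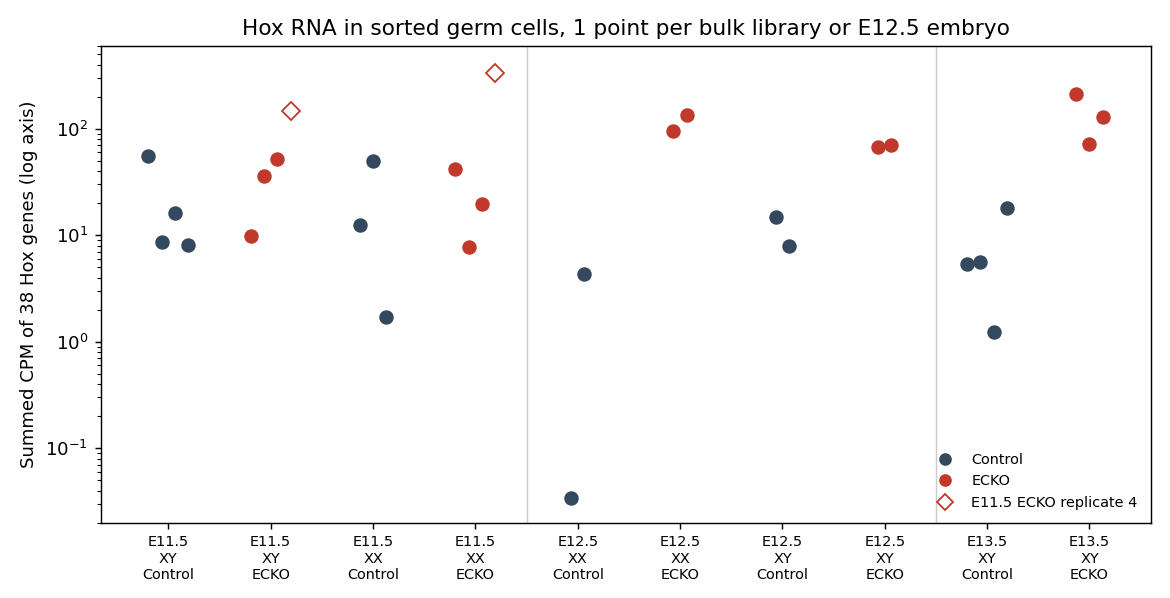
Summed CPM of the 38 Hox genes (log axis) in each bulk library and in each E12.5 embryo, by sex, stage and genotype, with the E11.5 ECKO libraries numbered 4 as open diamonds. At E13.5 the 3 ECKO libraries (71.6 to 210 CPM) sit above the 4 Controls (1.22 to 18.0 CPM). At E11.5 the groups overlap with or without the open diamonds.

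Of the 38 genes, 36 had a count at E13.5 and 10 passed the filter on low counts. The filter lets a gene in when it is high in either group, so these 10 are not a sample of the family. Of the 10, 5 were called higher in ECKO (Hoxc9, Hoxc12, Hoxc13, Hoxd8 and Hoxd9) and 0 lower, where 2.99% of all 12336 genes tested were called higher and 1.9% lower. Of the 36 genes with a count, 11 were higher in every ECKO than in any Control library, against 9.68% of all genes with a count. None of the 36 was lower in that sense, against 8.06%. The ECKO mean lay above the Control mean for 32 of the 36, against 55% of all genes. Genes with a count in ECKO only, such as Hoxd11 and Hoxb4, have the higher ECKO mean by necessity.

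HoxC gave 3 of the 5 calls. Hoxc12, a posterior gene next to Hoxc13, had 0, 0.0798, 0 and 0 CPM in Controls and 50.6, 2.58 and 13.1 CPM in ECKO. The Controls held a single count in all against 611 in ECKO, and ECKO replicate 1 was the highest. The ratio of the pooled counts was 826 (95% exact counting interval 148 to 32700), and the fitted log2 fold change, which for so low a Control depends on the prior count, was 9.12 (SE 1.43, adjusted p = 0.00926, edgeR).

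Hoxc13, which acts in hair follicles and nails, had 0.405, 0.399, 0 and 0.845 CPM in Controls and 6.20, 13.3 and 22.6 CPM in ECKO. Every ECKO library was above every Control (log2 fold change 5.10, SE 1.18, adjusted p = 0.0322, edgeR). Hoxc9, a gene of the thoracic and more caudal axis, had 0, 0.0798, 0 and 0 CPM in Controls and 1.91, 5.35 and 3.00 CPM in ECKO. The 3 ECKO values were close to each other and again apart from the Controls. Its pooled ratio was 145 (25.4 to 5769, 1 count against 107) and its fitted log2 fold change 6.47 (SE 1.58, adjusted p = 0.0381).

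Hoxc6, a thoracic gene, had 0.101, 0.0798, 0 and 1.06 CPM in Controls and 58.8, 0.297 and 3.97 CPM in ECKO. ECKO replicate 2 fell within the Control range, and the gene missed the threshold (log2 fold change 6.29, adjusted p = 0.0526). Hoxc8, also thoracic, had 0 to 0.422 CPM in Controls and 0.596, 10.3 and 11.8 CPM in ECKO, with no overlap. Hoxc10, a lumbosacral gene, had no Control count and 1.91, 0 and 7.22 CPM in ECKO, which is at least 47.3-fold higher in pooled counts against a floor of 3 counts over the Control group.

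In HoxD the pair shown above was called. Hoxd8 had 0, 0.0798, 0 and 0.211 CPM in Controls and 7.63, 9.41 and 12.2 CPM in ECKO. This was the most even of the 5 called genes over the ECKO libraries, with 2 counts in all Controls against 309 (pooled ratio 209, interval 57.4 to 1733; fitted log2 fold change 7.04, SE 1.39, adjusted p = 0.0174). Hoxd9 had 0, 0.0798, 0.122 and 0 CPM in Controls and 39.8, 2.38 and 0.973 CPM in ECKO. The groups did not overlap, but ECKO replicate 1 held most of its counts (pooled ratio 250.2, interval 68.8 to 2074; fitted log2 fold change 7.72, SE 1.64, adjusted p = 0.0239).

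Hoxd11, which shapes the forearm and, with Hoxa11, the kidney, had no count in any Control and 4.05, 1.19 and 2.11 CPM in ECKO. It was at least 32.5-fold higher in pooled counts but missed the threshold (adjusted p = 0.0533). Hoxd13, a gene of digits and genital tubercle, did not separate: Controls had 1.32, 0.319, 0 and 0 CPM and ECKO libraries 0.358, 0 and 5.11 CPM.

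No HoxB gene was called. Hoxb9, a thoracic gene, had 0, 0.559, 0 and 0 CPM in Controls and 24.1, 3.27 and 2.27 CPM in ECKO (adjusted p = 0.0581). Hoxb4, known from blood stem cells, had no Control count and 2.38, 1.19 and 2.92 CPM in ECKO (at least 30.7-fold higher, adjusted p = 0.0562). For both genes every ECKO library was above every Control, as it was for Hoxb8 (0 to 0.101 CPM in Controls and 3.22, 0.694 and 9.65 CPM in ECKO). Hoxb3, an anterior gene of the hindbrain, had 0.202, 0.718, 0 and 0 CPM in Controls and 1.79, 0.793 and 0.649 CPM in ECKO, with overlap.

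The only tested HoxA gene, Hoxa13, was not called. Hoxa13, another gene of digits and genital tubercle, had 3.13, 2.48, 0 and 3.38 CPM in Controls and 5.72, 0.0991 and 5.51 CPM in ECKO. The groups overlapped at both ends (log2 fold change 0.75, adjusted p = 0.802). Hoxa5, needed in lung development, had 6.34 CPM in Control replicate 4 and no count in the other 6 libraries, and Hoxa2, a hindbrain gene, had 4.43 CPM in that same library alone. Hoxa3, needed for the thymus and parathyroid glands, went the other way, with 0, 0.239, 0 and 0.211 CPM in Controls and 0, 11.2 and 5.92 CPM in ECKO, where replicate 1 had none. Hoxa10, a gene of the uterus and reproductive tract, was low throughout but separated the groups, with 0 to 0.422 CPM in Controls and 0.477, 1.19 and 2.11 CPM in ECKO. Hoxa4 had a count in ECKO replicate 2 only, at 0.198 CPM.

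**Figure D2:**
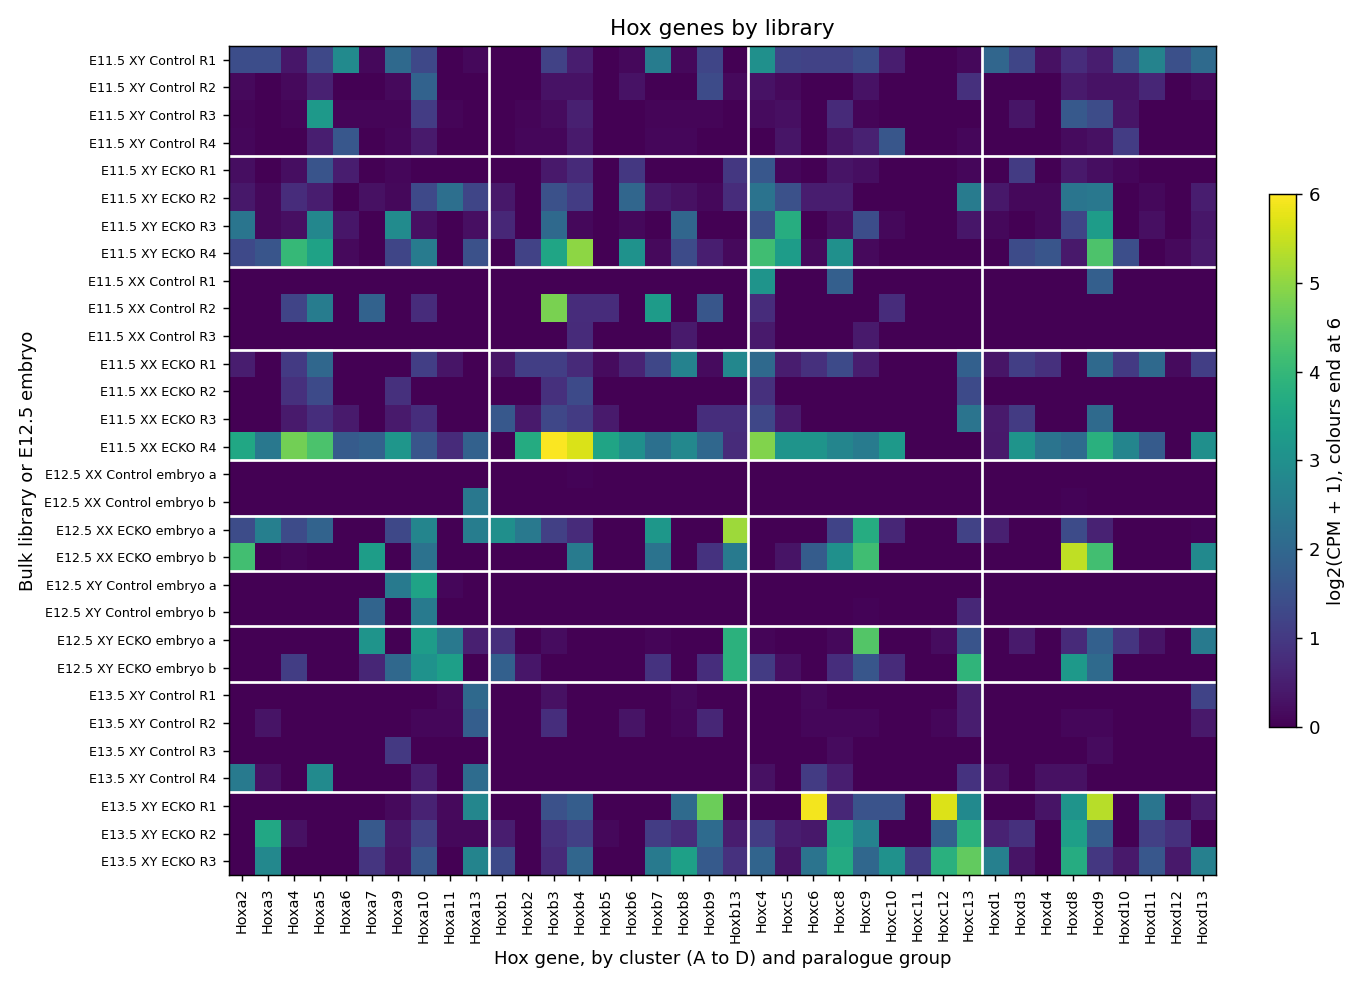
Level of each Hox gene as log2(CPM + 1) (colour, ending at 6) by cluster and paralogue group (columns) in each bulk library and E12.5 embryo (rows). Of the E13.5 rows, ECKO replicate 1 is the brightest in the columns Hoxc6, Hoxc12, Hoxd9 and Hoxb9 and ECKO replicate 3 in Hoxc13, and of the E11.5 rows of each sex the ECKO library numbered 4 is the brightest in Hoxb3 and Hoxb4.

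Summed by cluster, HoxA overlapped between the groups (3.24, 2.87, 0.979 and 14.8 CPM in Controls, 6.44, 15.3 and 14.7 CPM in ECKO). HoxB stood at 0.303, 1.60, 0 and 0 CPM against 31.5, 7.93 and 22.3 CPM. HoxC stood at 0.506, 0.719, 0.122 and 2.54 CPM against 120, 33.3 and 65.7 CPM. HoxD stood at 1.32, 0.479, 0.122 and 0.634 CPM against 52.1, 15.1 and 26.4 CPM. HoxB, HoxC and HoxD thus did not overlap, and ECKO replicate 1 was the highest and replicate 2 the lowest in each of these 3 clusters. Without the filter on low counts, 10 of the 36 genes were called higher (background 4.58%): 0 of HoxA, 2 of HoxB, 6 of HoxC and 2 of HoxD. The median fitted log2 fold change in that fit was 0.80 for HoxA, 5.70 for HoxB, 5.75 for HoxC and 4.92 for HoxD, beside 0.256 over all genes. No difference between clusters was tested.

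By position, the anterior genes summed to 0.202, 0.958, 0 and 4.86 CPM in Controls and 1.79, 13.68 and 13.46 CPM in ECKO, where ECKO replicate 1 fell below Control replicate 4. The central genes summed to 0.202, 0.559, 0.122 and 8.45 CPM against 72.9, 27.0 and 48.9 CPM. The posterior genes summed to 4.96, 4.15, 1.10 and 4.65 CPM against 135, 30.9 and 66.7 CPM. Central and posterior sums did not overlap between the groups. The 10 calls of the unfiltered fit were 0 anterior, 4 central and 6 posterior genes. Which ECKO library was highest differed by gene: Hoxc6, Hoxc12, Hoxd9 and Hoxb9 were highest in replicate 1, Hoxa3 and Hoxc9 in replicate 2, and Hoxc13, Hoxc8, Hoxb8 and Hoxd8 in replicate 3.

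**Figure D3:**
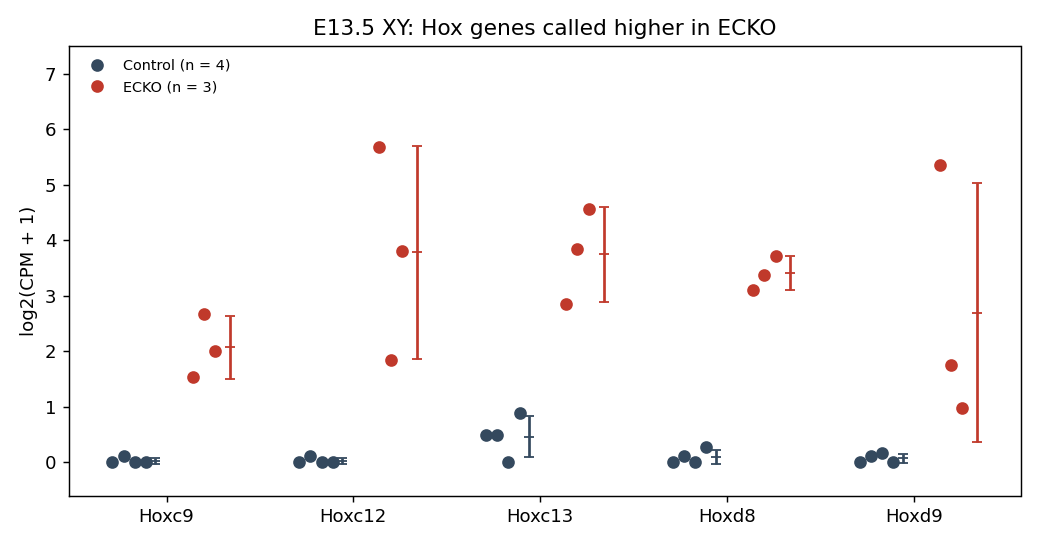
Level as log2(CPM + 1) of the 5 Hox genes called higher at E13.5, 1 point per library, Control (n = 4) and ECKO (n = 3), with a bar for the mean ± SD of each group beside its points. In each of the 5 genes every ECKO point lies above every Control point, and the ECKO points of Hoxc12 and Hoxd9 are the most spread.

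The number of calls rested on single libraries. It was 1 without Control replicate 1 and without Control replicate 4, 2 without Control replicate 2, ECKO replicate 2 or ECKO replicate 3, 5 without Control replicate 3, and 10 without ECKO replicate 1. Hoxc12 was called in each of these fits, with adjusted p-values of 0.0106 to 0.0474. Interstitial cell markers were at 178, 204, 305 and 179 summed CPM in Controls and at 185, 290 and 259 in ECKO, with overlap, and 11, 16, 7 and 15 of the 18 markers had a count in Controls against 8, 17 and 16 in ECKO. ECKO replicate 1, with the highest Hox sum, had the fewest of them among the ECKO libraries. Of the 9 interstitial markers tested, Pdgfra, a receptor gene of mesenchymal cells, was called higher (0.607, 0.639, 0 and 1.90 CPM against 5.49, 32.3 and 19.7 CPM, log2 fold change 4.65, adjusted p = 0.0426), where 2.99% of all genes were. Of 4 mesonephros markers tested, Six2, a gene of nephron progenitor cells, was called higher (4.22 to 5.16 CPM against 71.7, 21.1 and 11.52 CPM, log2 fold change 2.84, adjusted p = 0.0395), and ECKO replicate 1 was the highest. The mesonephros marker sum was 67.4, 74.4, 26.7 and 62.3 CPM in Controls and 101.5, 44.7 and 40.6 CPM in ECKO, with overlap. The part of such cells in the Hox values was not tested.

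At E12.5, cells were summed per embryo, and the embryos of a group are called a and b here, without meaning in the labels. The Hox sum was 0.0341 and 4.30 CPM in XX Control embryos and 95.7 and 136 CPM in XX ECKO embryos. In XY it was 14.8 and 7.93 CPM in Controls and 67.5 and 70.1 CPM in ECKO. The groups did not overlap in either sex, and XY Controls were above XX Controls. A count was found for 1 and 2 genes in XX Controls, 21 and 15 in XX ECKO, 3 and 4 in XY Controls, and 19 and 18 in XY ECKO.

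With 2 embryos a group, edgeR called 0 of 19 Hox genes tested in XX (background 0.0143%) and 0 of 19 in XY (background 0.00717%). At an unadjusted p under 0.05 the counts were 9 (7.84% of all genes higher) and 5 (4.22%), and DESeq2 called 7 (background 4.74%) and 3 (1.91%). Without the filter edgeR called 4 of 31 higher in XX (Hoxa10, Hoxb13, Hoxc9 and Hoxd8, background 2.36%) and 0 lower (1.05%), and 1 of 31 in XY (Hoxb13, background 0.747%). Genes higher in both ECKO than in both Control embryos numbered 11 of 25 with a count in XX, against 21.9% of all genes, and 10 of 25 in XY, against 19.6%. In XX 22 of these 25 had no Control count (background 14%). The ECKO mean was the higher for 25 of 25 genes in XX (background 56.5%) and 24 of 25 in XY (background 55.8%), with Hoxa9 the exception. For the 22 genes without an XX Control count this direction was fixed in advance, as for XY genes with counts in ECKO only. For such genes the comparison with the background adds nothing.

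The posterior gene Hoxb13, which acts at the tail end and in the prostate, had no overlap in either sex. It had no count in any of the 4 Control embryos and 33.9 and 4.52 CPM in XX ECKO, and 13.54 and 13.47 CPM in XY ECKO. This was at least 458-fold higher in XX and 165-fold in XY against a floor of 3 counts over the Control group, with adjusted p-values of 0.138 and 0.503. Hoxb7, a thoracic gene, also had no Control count, with 7.97 and 3.86 CPM in XX ECKO and 0.0501 and 0.846 CPM in XY ECKO.

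In HoxC, Hoxc9 had no count in XX Controls and 12.1 and 16.9 CPM in XX ECKO (at least 282-fold higher, adjusted p = 0.14). In XY it had 0 and 0.0495 CPM in Controls and 19.95 and 2.06 CPM in ECKO, a pooled ratio of 353 (63.1 to 13990, adjusted p = 0.586). It was thus above the Controls in all 4 ECKO embryos. Hoxc13 had a count in 1 of 2 XX ECKO embryos (1.27 CPM, no XX Control count), and stood at 0 and 0.594 CPM in XY Controls and 1.96 and 14.3 CPM in XY ECKO. Hoxc12, the strongest call of E13.5, was near absent, with 0.150 CPM in XY ECKO embryo a and no count in the other 7 embryos.

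In HoxD, Hoxd8 had 0 and 0.0368 CPM in XX Controls and 1.57 and 42.2 CPM in XX ECKO, and no count in XY Controls against 0.652 and 8.32 CPM in XY ECKO. Embryo b was the higher in both sexes. Hoxd9 had no Control count in either sex, with 0.486 and 17.1 CPM in XX ECKO and 2.61 and 3.24 CPM in XY ECKO. The HoxD sum of XX ECKO embryo b (65.5 CPM) was above that of embryo a (2.54 CPM), and 1 cell of embryo b, described with the single cells, held 91.2% of its Hoxd8 counts and 92.6% of its Hoxd9 counts.

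In HoxA, some genes had counts in Controls. Hoxa10 had no count in XX Controls and 5.69 and 3.80 CPM in XX ECKO (at least 100.5-fold higher). In XY it had 10.2 and 4.46 CPM in Controls and 9.02 and 7.29 CPM in ECKO, with overlap (log2 fold change 0.16, adjusted p = 1). The difference of the Hoxa10 effect between the sexes was not tested. Hoxa11, its neighbour and partner in the reproductive tract, had no count in XX embryos, and stood at 0.0738 and 0 CPM in XY Controls and 4.41 and 9.49 CPM in XY ECKO. Hoxa13 had 4.27 CPM in XX Control embryo b and 4.86 CPM in XX ECKO embryo a.

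Cluster sums at E12.5 left HoxA overlapping in neither sex: 0 and 4.27 CPM in XX Controls against 22.97 and 30.1 in XX ECKO, and 14.8 and 7.28 CPM in XY Controls against 21.5 and 21.6 in XY ECKO. In XX ECKO embryo b, however, 1 cell, described with the single cells, held 100% of the Hoxa2 counts and 97.4% of the Hoxa7 counts. Hoxa2 alone gave 17.1 CPM of that HoxA sum, so the separation in XX rested in part on this cell. HoxB, HoxC and HoxD summed to at most 0.644 CPM in any Control embryo. In ECKO embryos they reached 55.0 and 13.9 (XX) and 14.5 and 17.9 CPM (XY) for HoxB, 15.2 and 26.6 and 22.2 and 19.03 CPM for HoxC, and 2.54 and 65.5 and 9.33 and 11.56 CPM for HoxD. The posterior genes summed to 60.3 and 49.4 CPM in the XX ECKO embryos and 57.8 and 54.4 CPM in the XY ECKO embryos, against 0 and 4.27 and 14.8 and 5.10 CPM in the Controls. Anterior genes had no count in any Control embryo and summed to 19.6 and 17.1 CPM in XX ECKO and 1.25 and 2.87 CPM in XY ECKO. The XX ECKO embryos were not alike in this. In embryo a 6 anterior genes had a count, and 6 of 13 cells had one at 10 CPM or more. In embryo b the whole anterior sum was Hoxa2 in 1 of 13 cells.

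Single cells show whether these sums came from many cells. A cell was counted as having a Hox gene present where that gene reached 10 CPM. The median cell held 990910.5 to 1998464 counts by embryo. In XX Controls 0 of 14 cells of embryo a (which allows a share of up to 21.4% by a limit of 3 cells, and 23.2% by the exact 95% interval) and 1 of 16 of embryo b (6.25%) had a Hox gene present. In XX ECKO it was 11 of 13 cells (84.6%, exact 95% interval 54.6 to 98.1) and 7 of 13 (53.8%, 25.1 to 80.8). XY Controls had 6 of 13 (46.2%, 19.2 to 74.9) and 7 of 22 (31.8%, 13.9 to 54.9), and XY ECKO 15 of 18 in each embryo (83.3%, 58.6 to 96.4). The share was higher in both ECKO embryos than in both Controls of either sex, and the intervals cover the sampling of cells within an embryo only. With every cell thinned to 50000 counts and any count taken as present, the cells with a Hox count numbered 0 and 1 in XX Controls, 11 and 8 in XX ECKO, 6 and 5 in XY Controls and 15 and 14 in XY ECKO.

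The Control cells of XY embryos with a Hox gene present owed it to HoxA. No Control cell of either sex, 65 in all, had a HoxB, HoxC or HoxD gene present, whereas a HoxA gene was present in 6 and 7 cells of the XY Controls and in 10 and 8 of the XY ECKO embryos. HoxB genes were present in 7 and 2 cells of the XX ECKO embryos and in 6 and 3 cells of the XY ECKO embryos. HoxC genes were present in 4 and 4 and in 7 and 8 cells, and HoxD genes in 1 and 4 and in 5 and 5 cells. Genes of at least 2 clusters were present together in 5, 3, 9 and 8 ECKO cells of the 4 embryos and in 0 Control cells.

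**Figure D4:**
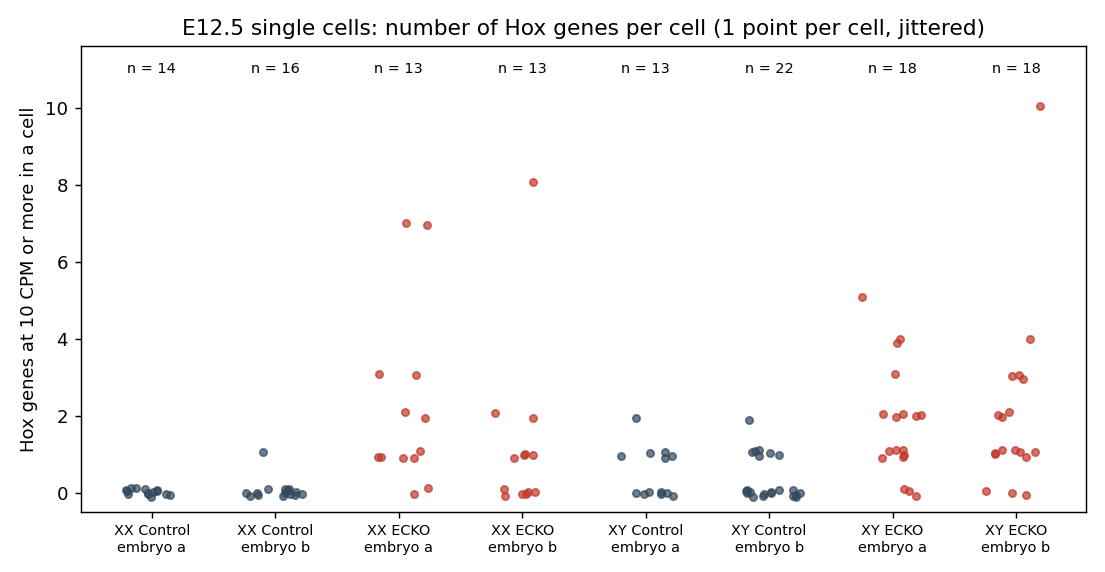
Number of Hox genes at 10 CPM or more in each kept E12.5 cell (points, jittered) by embryo. Control cells have 0 to 2, and ECKO cells reach 7 and 8 in the XX embryos and 5 and 10 in the XY embryos.

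Gene by gene, Hoxa10 had a count in the most cells: 0 of 30 XX Control, 6 of 26 XX ECKO, 12 of 35 XY Control and 16 of 36 XY ECKO cells. Hoxc9 was found in 0, 12, 1 and 12 cells of these groups, Hoxc13 in 0, 3, 3 and 14, Hoxb13 in 0, 9, 0 and 10, Hoxd9 in 0, 5, 0 and 10, and Hoxd8 in 1, 3, 0 and 9. These 5 genes outside HoxA were found in at most 3 cells of any Control group. Hoxa11 was found in 0, 0, 1 and 11 cells and Hoxa3 in 0, 6, 0 and 0, so these HoxA genes appeared in ECKO cells of 1 sex. Whether the sexes differ in them was not tested. No count was found in any cell for 7 genes: Hoxa6, Hoxb5, Hoxb6, Hoxb8, Hoxc11, Hoxd4 and Hoxd12.

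Cells with at least 2 Hox genes present numbered 6 and 3 in XX ECKO, 9 and 8 in XY ECKO, 0 and 0 in XX Controls, and 1 and 1 in XY Controls. 1 cell of XX ECKO embryo b held 72.3% of that embryo's Hox counts. It had 8 Hox genes present (Hoxa2, Hoxa7, Hoxb4, Hoxb7, Hoxc6, Hoxc8, Hoxd8 and Hoxd9, 865 CPM in sum) together with 1388 CPM of Pdgfra, 406 CPM of Wt1 and 151 CPM of Gata4, the last 2 being gonadal somatic genes, and a germ cell marker sum of 170 CPM. The cell with the most Hox genes, 10, was in XY ECKO embryo b and had a germ cell marker sum of 926 CPM. It spanned HoxA, HoxB and HoxC, from Hoxb1 to Hoxb13.

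Germ cell markers were present in the Hox-positive ECKO cells as a group. Their median germ cell marker sum was 3295 and 1980 CPM in the XX embryos and 5917 and 4758 CPM in the XY embryos, and Ddx4 had a count in 11 of 11, 7 of 7, 15 of 15 and 15 of 15 of them. Eed had a count in 11 of 11, 5 of 7, 14 of 15 and 9 of 15 of them. Control cells without a Hox gene present had higher medians of the germ cell marker sum. By embryo these were 6308 (XX a), 6105 (XX b), 6474 (XY a) and 8012 CPM (XY b). ECKO cells without one (2, 6, 3 and 3 cells in the same embryo order) had medians of 2014, 2129, 6973 and 6170 CPM. Summed interstitial markers of the embryos moved with genotype, at 13.9 and 14.3 CPM in XX Controls against 59.6 and 307 CPM in XX ECKO, and 1.70 and 2.63 CPM against 24.3 and 53.3 CPM in XY. ECKO cells above the highest Control cell of their sex in interstitial or supporting cell markers were left out, a choice made after seeing the data. The limits were 199 (XX) and 20.8 CPM (XY) for interstitial and 265.2 and 261.5 CPM for supporting cell markers. Cells below them stayed in, and other somatic markers were not used. A Hox gene was present in 10 of 12, 6 of 12, 8 of 11 and 9 of 11 remaining cells of the 4 ECKO embryos. The Hox sums of these embryos, here scaled to total counts, were then 79.4, 45.5, 51.8 and 68.0 CPM. With all kept cells they were 103.9, 144.6, 59.5 and 78.8 CPM on that scale. Each remaining sum was above the Controls of its sex (0.0348, 4.23, 14.2 and 7.19 CPM). The part of somatic cells in these values was not tested.

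At E11.5, the Hox sum did not separate ECKO from Control libraries, with or without the ECKO libraries numbered 4. In XY the Hox sum was 55.2, 8.72, 16.03 and 8.16 CPM in Control replicates 1 to 4 and 9.90, 36.1 and 51.5 CPM in ECKO replicates 1 to 3, with 147 CPM in ECKO replicate 4. Only ECKO replicate 4 was above all Controls, and Control replicate 1 was above the other 3 ECKO libraries. The mean of the ECKO group was 61.1 CPM with replicate 4 and 32.5 CPM without it. In XX the sum was 12.6, 49.8 and 1.70 CPM in Controls and 42.0, 7.69 and 19.7 CPM in ECKO replicates 1 to 3, with 336 CPM in replicate 4 (mean 101 CPM with it and 23.1 CPM without it).

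In E11.5 XY, 35 Hox genes had a count and 6 passed the filter. EdgeR called 0 of the 6 higher (background 1.51%) or lower (0.616%), 3 had an unadjusted p under 0.05 (9.38% of all genes higher), and DESeq2 called 2 (background 4.33%). Without ECKO replicate 4, 7 were tested and 0 called. Without the filter 1 of 35, Hoxb4, was called higher (background 1.78%) and 0 lower (0.746%). No gene was higher in every ECKO than in any Control library (background 4.41%), also not without replicate 4 (6.36%), and none was lower in that sense (3.39%). Hoxb1 alone of the 35 had no Control count (background 6.01%, and 5.22% without replicate 4). Hoxd10, a posterior limb gene, was lower in every ECKO library than in any Control without replicate 4 (background 4.75%). The ECKO mean was the higher for 24 of 35 genes (background 54%), and for 19 of 35 without replicate 4 (52.3%).

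The lowest p-values of E11.5 XY were those of Hoxd9, Hoxc5 and Hoxb3. Hoxd9 had 0.392, 0.227, 1.62 and 0.204 CPM in Controls and 0.161, 4.27 and 8.997 CPM in ECKO replicates 1 to 3, with 19.1 CPM in replicate 4. ECKO replicate 1 was below all Controls and the other 3 were above (log2 fold change 3.68, SE 1.14, adjusted p = 0.109, edgeR, and 2.83 with adjusted p = 0.299 without ECKO replicate 4). Hoxc5, a cervical and thoracic gene, had 1.37, 0.113, 0.194 and 0.272 CPM in Controls and 0.0805, 1.79 and 12.3 CPM in ECKO, with 8.92 CPM in replicate 4 (log2 fold change 3.55, adjusted p = 0.161, and 3.26 with 0.27 without replicate 4). Its ECKO replicate 1 was likewise the lowest of all 8 libraries. Hoxb3 had 1.27, 0.227, 0.129 and 0.0680 CPM in Controls and 0.322, 1.79 and 3.13 CPM in ECKO, with 10.51 CPM in replicate 4 (log2 fold change 3.21, adjusted p = 0.193, and 2.04 with 0.529 without replicate 4).

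Of the other 3 tested, Hoxc4, a cervical gene, had 7.06 CPM in Control replicate 1 and 0 to 0.227 CPM in the other Controls, against 2.09, 3.87 and 1.76 CPM in ECKO and 16.9 CPM in replicate 4 (log2 fold change 1.74, adjusted p = 0.553, and 0.48 with 0.925 without replicate 4). Hoxa5 (log2 fold change 0.75, adjusted p = 0.793, and 0.032 with 0.996 without replicate 4) and Hoxa10 (0.964) overlapped fully. For Hoxa10 the log2 fold change of 0.18 turned to −1.31 without ECKO replicate 4 and to −0.15 without Control replicate 4. Hoxb4 had 0.227 to 0.452 CPM in Controls and 0.644, 1.09 and 0.0978 CPM in ECKO, with 30.5 CPM in replicate 4, so that library held most of its counts.

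In E11.5 XX no Hox gene passed the filter (background 0.136% higher and 0.0362% lower), and without it edgeR called 0 of 36 (background 0.998% higher and 0.261% lower), and 11 had an unadjusted p under 0.05 in that fit (9.2% of all genes higher). DESeq2, run on the filtered genes, tested no Hox gene. The XX Control libraries held 415291, 1515482 and 3088644 counts in all, and 21 of the 36 genes had none in any Control (background 16.2%), and 18 of 33 without ECKO replicate 4 (14.2%). ECKO replicates 1 to 4 held 7559310, 1323850, 2638850 and 2966355 counts. Genes near the floor are more easily missed in shallower libraries than most genes, and the part of depth in these zeros was not tested. No gene separated the groups upward (background 6.46%) or downward (3.64%, and 5.3% without replicate 4). The ECKO mean was the higher for 34 of 36 genes (background 59.5%), and for 25 of 33 without replicate 4 (56.5%). For the 21 genes with no Control count, and the 18 without replicate 4, this direction was fixed in advance. Without replicate 4, 1 of 33 separated the groups upward (background 9.08%), Hoxc13, with no Control count and 2.60, 1.54 and 3.93 CPM in ECKO replicates 1 to 3, while replicate 4 had none.

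In ECKO replicate 4 of XX, genes of the anterior and central sections stood at 61.6 (Hoxb3), 49.4 (Hoxb4), 28.2 (Hoxc4), 25.2 (Hoxa4) and 18.6 CPM (Hoxa5). Among the other E11.5 XX libraries Hoxb3 was highest in Control replicate 2, at 26.6 CPM. HoxB summed to 153.5 CPM in XX replicate 4 and 51.8 CPM in XY replicate 4, against 0 to 38.9 and 0.612 to 7.94 CPM in the other libraries of each sex. Hoxc12, the strongest call at E13.5, had no count in any E11.5 library, the replicates numbered 4 included. Of the Controls, those with the highest Hox sum of each sex, XY replicate 1 and XX replicate 2, also had the highest interstitial marker sums, 260 and 306 CPM. The 2 ECKO libraries numbered 4 were the highest of their sex in Pdgfra (39.5 CPM in XY and 214.5 in XX), Col1a1 (75.5 and 178) and Dlk1 (40.7 and 121), genes of mesenchymal or interstitial cells. The part of such cells in their Hox values was not tested.

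**Figure D5:**
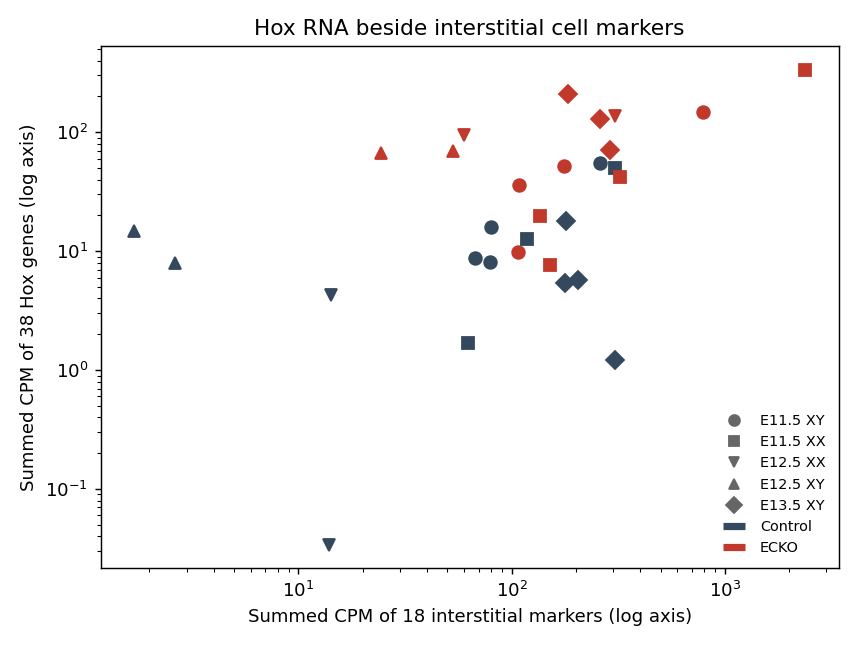
Summed CPM of the 38 Hox genes against summed CPM of 18 interstitial cell markers (both axes log), 1 point per bulk library or E12.5 embryo, by stage and genotype. The E11.5 ECKO libraries numbered 4 lie at the upper right (794 and 2380 marker CPM), and the E13.5 ECKO libraries lie above Controls of like marker sums (178 to 305 in Controls, 185 to 290 in ECKO). Like sums do not mean like single markers: Pdgfra was higher in each E13.5 ECKO library than in any Control.

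Whether the ECKO effect differed between sexes or stages was tested with an interaction term. Between XX and XY at E11.5, 26 Hox genes were tested and edgeR called 0, as it did of all 14185 genes (2 Hox genes had an unadjusted p under 0.05 with the effect higher in XX, where 3.12% of all genes did, and DESeq2 called 0, background 0.00705%). Without both ECKO libraries numbered 4, 13 Hox genes were tested and 0 called. Between E13.5 and E11.5 in XY, 24 Hox genes were tested and edgeR called 0 (background 0.491% higher and 0.706% lower), 7 had an unadjusted p under 0.05 with the effect higher at E13.5 (8.33% of all genes), and 2, Hoxa5 and Hoxa2, with the effect lower (9.29%). DESeq2 called 3 higher (background 3.07%). Without E11.5 ECKO replicate 4, 22 Hox genes were tested and 0 called. Without the filter 2 of 38 were called higher (background 0.777%) and 0 lower (0.808%). The lowest adjusted p-values were those of Hoxd11 (0.0653), Hoxc10 (0.0698), Hoxd8 (0.0912), Hoxb9 (0.0914) and Hoxb7 (0.0973). Without E13.5 ECKO replicate 1, 4 genes were called. The calls at E13.5 are therefore not shown to be absent at E11.5.

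In XY Controls between E11.5 and E13.5, stage and table cannot be told apart. Of 24 Hox genes tested, Hoxa13 was called higher at E13.5 (background 15.8%), from 0.0980, 0, 0 and 0 CPM at E11.5 to 3.13, 2.48, 0 and 3.38 CPM (log2 fold change 6.17, SE 1.89, adjusted p = 0.0169). Control replicate 3 of E13.5 had none, as had 3 of the 4 E11.5 Controls. Called lower were Hoxd11, Hoxd10 and Hoxc5 (background 15.7%), each with no count in any E13.5 Control. At E11.5 they had 5.39, 0.566, 0 and 0 CPM, 1.86, 0.227, 0.259 and 1.09 CPM, and 1.37, 0.113, 0.194 and 0.272 CPM (adjusted p = 0.0302, 0.0476 and 0.048). E11.5 Control replicate 1 was the highest library of all 3 genes, and leaving out single libraries gave 0 to 6 lower calls. Neither the higher nor the lower calls exceeded the share called over all genes.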

How the data were processed

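RNA was measured in 22 bulk libraries and 192 single cells of GFP-sorted cells; 8 bisulfite samples were not analysed here. The authors deposited raw counts per gene symbol in 5 tables. HISAT2, edgeR and build mm9 are named in the submitters' processing notes, without versions; no source used here names the counting program or its use of strand, so overlapping antisense genes cannot be told apart. Bulk RNA was amplified with the Ovation V2 kit and cells with Smart-seq2, per the labels' protocols.

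The whole of each table was tested with edgeR 4.0.16 under R 4.3.3 (quasi-likelihood test, filterByExpr, TMM scaling, Benjamini-Hochberg adjusted p under 0.05), and the procedure was tested on simulated data. Tests are two-sided. Levels are CPM on TMM-scaled library sizes, not divided by gene length, so levels are compared between samples and not between genes, and sums over genes weigh long and short transcripts alike. DESeq2 1.42.0, other scalings, no filter, left-out libraries and a replicate block were alternatives. Cells with at least 50000 counts and 1500 genes were kept, with no doublet caller run, and summed per embryo. Embryos are grouped by the table headers, since the embryo names there are not tied to sample titles; 1 XX cell titled ECKO has a wild type genotype label. Replicate pairs differed by more than counting noise (chi-square per degree of freedom 4.495 or more), so no library was counted as a copy. Pooled ratios carry exact 95% intervals, which cover counting error only.

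Named are every Hox gene called in any comparison and the 6 tested of lowest p in each bulk comparison. So are the 3 of highest level in each cluster, the 6 found in most cells, and Eed. Of each other list, up to 4 genes called in ECKO against Control at E13.5 XY or E11.5 XY are named. Other genes are named where a library or cell is described, after their values were seen. The genes and lists were chosen with earlier results of these data known. 1 further Hox row of the tables is not reported here.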

Additional observations from a re-analysis of the deposited data

Results flagged for a closer look

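In 48 group and gene combinations tested for a sample far from the others of its group, 18 had one. The chance rate of the rule, about 1 in 20, assumes normal values and separate combinations. Many values here were near the floor and the sums share genes, so 18 cannot be set against that rate. Of the E11.5 ECKO libraries numbered 4, the XX library stood far above the other 3 in the Hox sum (336 CPM against 7.69 to 42.0), in HoxA (77.2 against 2.50 to 5.84), HoxB (153 against 2.31 to 16.6) and HoxC (62.0 against 2.31 to 8.82). The same library was apart in Hoxc9 (4.64 CPM against 0 to 0.389), Hoxd8 (3.31 against 0), Hoxa13 (2.65 against 0) and Hoxc5 (7.62 against 0 to 0.389). The XY library was apart in HoxB (51.8 CPM against 2.90 to 7.45) and Hoxd10 (1.70 against 0 to 0.0805).

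Among E11.5 XY Controls, replicate 1 was apart in the Hox sum (55.2 CPM against 8.16 to 16.03), Hoxd11 (5.39 against 0 to 0.566) and Hoxc5 (1.37 against 0.113 to 0.272). Control replicate 2 was apart in Hoxc13 (0.793 CPM against 0 to 0.0980), and Control replicate 3 in Hoxd9 (1.62 against 0.204 to 0.392). Among E11.5 XY ECKO libraries, replicate 2 was apart in Hoxc13 (4.67 CPM against 0 to 0.293) and replicate 3 in Hoxc9 (1.66 against 0 to 0.161). At E13.5, Control replicate 4 was apart in HoxA (14.8 CPM against 0.979 to 3.24), where Hoxa5 and Hoxa2 had their counts.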

How the results depend on the processing

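Counts of Hox genes called higher changed with the settings. At E13.5 (5 called), total-count scaling gave 8, DESeq2 7, no filter 10, the replicate block 0, and leaving out single libraries 1 to 10; total-count scaling moved the median log2 fold change of all genes from 0.049 to 0.282. At E11.5 XY (0 called), no filter gave 1, DESeq2 2, and left-out libraries 0 to 1. At E12.5 XX (0 called), no filter gave 4, DESeq2 7 and left-out embryos 0 to 3; in XY (0 called) these were 1, 3 and 0 to 1, the lone embryo being assumed to vary like the other groups. The stage difference in XY (0 called) gave 2 without the filter, 3 with DESeq2 and 0 to 4 with left-out libraries. The 3 lower calls between XY Controls ranged from 0 to 6. Any Hox count in place of 10 CPM gave 100% and 76.9% of cells in XX ECKO, 88.9% in both XY ECKO embryos, 1 of 14 and 2 of 16 cells in XX Controls and 53.8% and 45.5% in XY Controls. Hoxa10 at E11.5 XY (log2 0.18) turned to −1.25 with the replicate block, −0.15 without Control replicate 4 and −1.31 without ECKO replicate 4, in a range of −1.31 to 0.71 over left-out libraries. The cause of these changes was not tested. Same-numbered libraries were not treated as pairs in the main fits. Correlations of their deviations from group means were −0.146 to 0.168. In E11.5 XX, replicates 1 and 3 correlated best with their own number (0.0524 and 0.168). Whether same-numbered libraries share a litter or batch was not tested. No paired analysis was possible at E12.5 because the numbers in the table headers are shared by only 1 XX Control and 1 XX ECKO embryo and by none in XY.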

Other observations

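Transcripts that do not code for protein in the Hox clusters were also found in ECKO. The 13 such genes present in the tables summed to 0, 0.0798, 0 and 0 CPM in E13.5 Controls and to 0.954, 5.35 and 6.16 CPM in ECKO, with no overlap. At E12.5 they summed to 0.591 and 1.39 CPM in XY Controls and 12.4 and 6.59 CPM in XY ECKO, and to 0.819 and 0 CPM against 5.09 and 1.27 CPM in XX. At E11.5 the groups overlapped. In XY the sums were 0.566 to 3.75 CPM in Controls and 0.489 to 1.29 CPM in ECKO replicates 1 to 3, with 3.19 CPM in replicate 4. In XX they were 0 to 0.340 CPM in Controls and 1.30, 0 and 5.36 CPM in ECKO replicates 1 to 3, with 16.6 CPM in replicate 4. None of these genes was tested in the bulk libraries after the filter. Of protein-coding neighbours outside the clusters, 0 of 8 tested were called at E13.5, where 369 of all 12336 genes were called higher and 235 lower. With so few genes this is near the share over all genes and is no result about the neighbours. Their sum was 598 to 937 CPM in Controls and 456 to 772 CPM in ECKO, with overlap. The TALE cofactors, homeodomain partners of Hox proteins, likewise had 0 of 8 called at E13.5. Their sum was nevertheless lower in each ECKO library than in any Control (231 to 287 CPM in Controls and 111 to 207 CPM in ECKO).

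Among Polycomb genes at E13.5, the PRC1 genes Phc2 (log2 fold change 3.10, SE 0.708, adjusted p = 0.0303) and Cbx2 (1.82, SE 0.425, adjusted p = 0.0331) were called higher, 2 of 19 tested, where 2.99% of all genes were. Of 11 PRC2 genes tested Eed alone was called, lower, and of 12 trithorax and demethylase genes Kdm6a was called lower (−1.47, SE 0.358, adjusted p = 0.0381), where 1.9% of all genes were. Of 13 germ cell markers Mael, which acts against transposons in germ cells, was called higher (2.15, SE 0.343, adjusted p = 0.00965), and of 8 retinoic acid response genes Rxra, a retinoid receptor gene (2.90, SE 0.736, adjusted p = 0.044).

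Of 11 retinoic acid response genes tested at E11.5 XY, 4 were called higher, where 1.51% of all genes were: Stra8, which germ cells switch on before meiosis (log2 fold change 4.82, adjusted p = 0.0127), Crabp1 (1.61, 0.0147), Rarb (2.93, 0.0427) and Aldh1a2 (2.18, 0.0427). Of 20 PRC1 genes Bmi1 was called higher (1.62, adjusted p = 0.0452). Called lower, where 0.616% of all genes were, were Eed, Aard of 9 supporting cell markers tested (−1.39, adjusted p = 0.0146) and Pecam1 of 8 endothelial markers tested (−0.79, adjusted p = 0.0374). Pecam1 was not confined to endothelial cells here. In the summed E12.5 Control cells it had 54.1 to 126 CPM, where the endothelial gene Cdh5 had 0 to 9.32 CPM. Cdh5 overlapped between the groups at E11.5 XY (2.83 to 46.4 CPM in Controls and 2.74 to 56.5 CPM in ECKO). These gene lists were chosen with earlier results known.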
